A study of Mus musculus with 30 samples.

Results

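The genes described here encode the nuclear subunits of respiratory complexes I, III and IV in 5 tissues of adult C57BL/6 mice. They were taken by symbol: Nduf genes of the a, b, c, s and v series for complex I, Uqcr genes for complex III and Cox4 to Cox8 genes for complex IV, on nuclear chromosomes, without pseudogene symbols, and with at least 10 counts summed over the 30 libraries. Of 48709 genes in the tables, 67 symbols matched and 66 met the count minimum: 40 in complex I, 8 in complex III and 18 in complex IV. Cox8c, at 3 counts in all libraries together, was left out. The study measured total RNA of brain, kidney, liver, muscle and spleen from 3 wild-type (WT) mice and 3 mice with 1 disrupted copy of Ctcf (Ctcf+/-), giving 3 libraries per tissue and genotype. Ctcf encodes a DNA-binding protein that shapes chromosome folding, and the design addresses what losing 1 copy does to RNA in each tissue. How the allele was made, the sex of the mice and their exact age are not given in the sources used here, and neither is which libraries of different tissues came from the same mouse.

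The respiratory chain carries electrons from NADH and succinate to oxygen in the inner mitochondrial membrane and pumps protons that drive ATP synthesis. Complex I takes electrons from NADH, complex III passes them from ubiquinol to cytochrome c, and complex IV, cytochrome c oxidase, reduces oxygen. A few subunits are encoded by mitochondrial DNA, and the rest, described here, are nuclear genes whose products are imported. Several complex IV subunits exist as a general form and a form of heart and skeletal muscle, such as Cox6a1 and Cox6a2, Cox7a2 and Cox7a1, and Cox8a and Cox8b.

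Libraries held 49.8 M to 131.6 M counts in genes. Each tissue's own markers were present in all of its libraries, with none of these genes at 0. Ctcf was lower in every Ctcf+/- library than in every WT library of the same tissue. The difference on the log2 scale lay between -0.70 in kidney and -0.57 in muscle, and over all tissues it was -0.63 (SE 0.06, adjusted p = 4.0e-07, edgeR's quasi-likelihood test). Within single tissues the same kind of test gave an adjusted p under 0.05 in brain alone (0.026). It was 0.107 in kidney, 0.250 in muscle, 0.543 in liver and 0.914 in spleen. Markers of other cell types were present in some pieces. Marker levels are given in CPM, the usual unit of scaled counts, with each library total first multiplied by its TMM scaling factor. The summed level of 4 skeletal muscle markers was 92.1 and 113.9 CPM in replicate 3 of WT and Ctcf+/- kidney. It was 4.60 to 7.17 CPM in the other 4 kidney libraries. Erythroid markers ranged from 10049 to 63638 CPM over the 6 spleen libraries. Exocrine pancreas markers reached 654 CPM in Ctcf+/- spleen replicate 2, against at most 86.8 in the others. Liver and kidney markers differed between the genotypes in spleen without overlap. Liver markers summed to 19.4 to 24.9 CPM in WT spleen and 0.049 to 0.202 CPM in Ctcf+/- spleen. Kidney markers went the other way, at 0.092 to 0.265 CPM in WT and 2.11 to 4.40 CPM in Ctcf+/- spleen.

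Promoters of the Cox8 pair are shown first, and no promoter of Cox6a2 was available. Cox8a (chromosome 19) is the general form and Cox8b (chromosome 7) the heart and muscle form of the smallest complex IV subunit. The sequences run from 250 bases before to 50 bases after the annotated start, 5′ to 3′ on the gene's strand, from RefSeq on GRCm38.p6, at chr19:7217567-7217866 (minus strand) and chr7:140900397-140900696 (minus strand). Capitals mark matches, on either strand, to CCGGAAG (the core bound by ETS-family factors), CAGCTG (an E box of the kind bound by muscle regulators) and TATAAA.
Cox8a: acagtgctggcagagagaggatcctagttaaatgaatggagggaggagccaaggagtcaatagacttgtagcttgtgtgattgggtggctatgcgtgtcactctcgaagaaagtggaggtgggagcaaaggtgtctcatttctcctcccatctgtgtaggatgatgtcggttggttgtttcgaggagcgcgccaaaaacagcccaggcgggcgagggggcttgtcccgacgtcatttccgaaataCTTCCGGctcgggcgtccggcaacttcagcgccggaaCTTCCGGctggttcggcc
Cox8b: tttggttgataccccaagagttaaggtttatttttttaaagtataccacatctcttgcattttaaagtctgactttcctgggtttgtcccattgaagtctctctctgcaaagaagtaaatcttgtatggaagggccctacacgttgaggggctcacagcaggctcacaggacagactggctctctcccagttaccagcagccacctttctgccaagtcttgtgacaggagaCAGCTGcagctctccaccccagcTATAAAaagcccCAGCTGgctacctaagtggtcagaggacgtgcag
In Cox8a the capitals are 2 copies of CTTCCGG, the reverse complement of the ETS core, beginning 5 bases before and 32 bases after the start. In Cox8b they are 2 copies of CAGCTG, beginning 19 bases before and 16 bases after the start, and TATAAA beginning 4 bases after it. Cox8a held 19 CpG dinucleotides in these 300 bases and Cox8b held 2, against a median of 7 over all 32851 promoters in the table. The table held 52 promoters for 50 of the 66 genes, with a median of 18.5 CpG. The ETS core was present in 9 of the 52 (17.3%) and in 8.86% of all promoters. By complex it was in 4 of 34, 2 of 5 and 3 of 13 for I, III and IV. CAGCTG was in 5 of 52 (9.62%) against 16.3% of all promoters, and TATAAA in 7 (13.5%) against 13.6%. Promoters of the Cox7a1 and Cox7a2 pair held none of these motifs, with 7 and 20 CpG. These matches describe letters in a window and do not show binding.

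Levels below are CPM per kilobase of exon, with the same TMM scaling. In WT muscle the Cox8b level was 2214, 1873 and 1475 in the 3 libraries. It was 12.4 to 29.4 in WT kidney and 1.82 to 2.43 in WT brain. WT liver and WT spleen held at most 6 counts of Cox8b in any library. Cox8a went the other way. Its level was 97.6, 96.1 and 59.4 in WT muscle, below every other WT library, and 785 to 882 in WT kidney, where it was highest. As a share of Cox8a and Cox8b together, Cox8b made up 95.7% ± 0.51 (SD, n = 3) in WT muscle and 95.0% ± 0.62 (SD, n = 3) in Ctcf+/- muscle. In WT kidney the share was 2.25% ± 1.18 (SD, n = 3), with replicate 1 at 3.61%.

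Cox6a2, the heart and muscle form of another regulatory subunit of complex IV, was also highest in muscle, although the order of the other tissues differed, with brain next and kidney below spleen. Its level in WT muscle was 2595, 2298 and 1879, the highest of any member in any tissue. In WT brain it was 7.84 to 8.65, in WT spleen 2.79 to 3.97, and in WT kidney 1.04 to 2.18. Cox6a1, the general form, was at 38.8 to 74.3 in WT muscle and 673 to 825 in WT kidney. Cox6a2 accounted for 97.5% ± 0.45 (SD, n = 3) of the pair in WT muscle, 2.77% ± 0.11 (SD, n = 3) in WT brain and 0.223% ± 0.061 (SD, n = 3) in WT kidney. In both pairs the muscle libraries overlapped no library of another tissue.

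The Cox7a family was mixed in muscle. Cox7a1, the muscle form, was at 1350, 1126 and 848 in WT muscle and made up 66.4% ± 1.48 (SD, n = 3) of the family, while Cox7a2 supplied 23.0% ± 0.89 (SD, n = 3). Cox7a2 did not fall in muscle: its level of 311 to 440 there overlapped that of 347 to 402 in WT kidney. Cox7a1 was also present in WT kidney, at 33.4 to 40.1, and was at 0.738 to 1.07 in WT spleen. The remaining relative, Cox7a2l, encodes a factor that joins complexes III and IV into supercomplexes, and C57BL/6 mice carry a shortened form of it. Its level varied least of the family: 151 to 207 in WT muscle, 140 to 212 in WT spleen, and 84.3 to 86.6 in WT brain, where it was lowest. In WT spleen it made up 71.7% ± 4.11 (SD, n = 3) of the family, with Cox7a2 at 45.5 to 91.2 there. Per raw count rather than per kilobase, the shares of Cox7a1 in WT muscle and Cox7a2l in WT spleen were 54.6% and 79.4%.

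**Figure D1:**
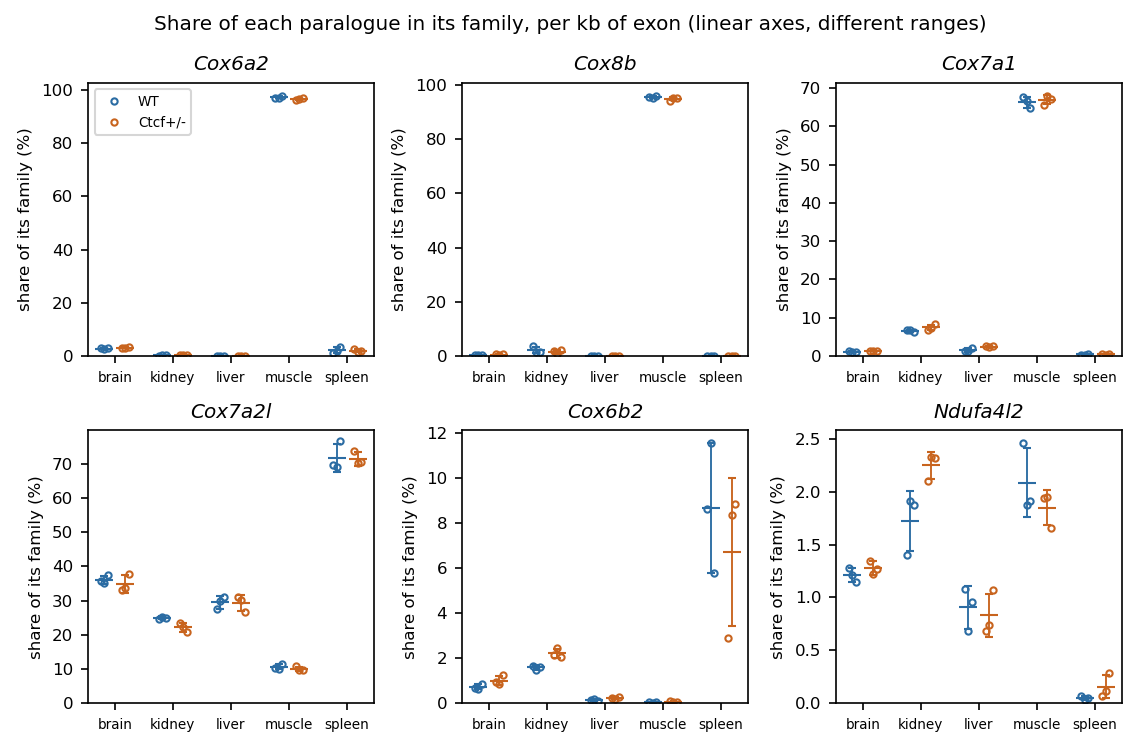
Share of each named paralogue in its family (%, per kilobase of exon) by tissue. Open circles are the 3 libraries of each genotype, bars the mean and SD; axes are linear, start at 0 and differ in range. Cox6a2 and Cox8b lay between 94.3% and 98.0% in the 6 muscle libraries and at 3.61% or less in all others, Cox7a1 was at 66.4% in WT muscle, and Cox7a2l was highest in spleen.

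The other pairs were dominated by 1 member in all tissues. Cox4i2, the oxygen-responsive lung form of Cox4, was 0.044% to 0.605% of the pair on average in WT tissues, with Cox4i1 making up the rest. Cox6b2, known as the testis form, was highest in spleen: 16.7, 14.3 and 5.83 in WT libraries, against 8.49 to 9.29 in WT kidney, which it overlapped. That was 8.65% ± 2.88 (SD, n = 3) of the Cox6b pair in WT spleen. Using the length of the longest coding transcript in place of the tables' exon length gave 13.5%, an alternative added after the data were seen. Cox7b2 was read in WT brain alone, with 12 to 30 counts per library, or 0.406% ± 0.137 (SD, n = 3) of the Cox7b pair. In the other 12 WT libraries its count was 0, which allows up to 3 counts in each.

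Ndufa4 and Ndufa4l2 carry complex I symbols and are counted there by the rule, although the Ndufa4 protein is known as a subunit of complex IV. Ndufa4l2, known as a gene induced by low oxygen, was at 10.1 to 19.8 in WT muscle, 4.55 to 6.61 in WT kidney, 1.47 to 1.58 in WT brain and 0.018 to 0.053 in WT spleen. Its share of the pair in WT muscle was 2.08% ± 0.33 (SD, n = 3), or 0.956% with coding transcript lengths. Markers of pericytes and smooth muscle, cells in which Ndufa4l2 is known to be expressed, were lowest in spleen too, at 2.70 to 3.89 CPM in WT against 775 to 823 in WT muscle. Their part in the Ndufa4l2 difference was not tested.

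Beyond the isoforms, the subunits moved as a block between tissues. Each WT tissue was compared with the mean of the other 4, and a gene was called at an adjusted p under 0.05 (edgeR's quasi-likelihood test) with a log2 difference of at least 1. In muscle, 63 of 65 tested members were called, 60 of them higher, where 48.8% of all genes tested were called, 22.8% higher and 25.9% lower. The median member difference was 2.39 on the log2 scale, against -0.34 over all genes. In spleen, 62 of 65 were called and 61 of them were lower, where 58.6% of all genes were called, 29.5% lower and 29.0% higher. The median there was -2.14 against -0.21. Bulk RNA cannot tell fewer cells of a type from less RNA per cell.

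Muscle was the highest tissue for 62 of the 66 members, and for 57 of them each WT muscle library lay above every other WT library. Spleen was lowest for 54, and for 42 each WT spleen library lay below all others. The full order muscle, kidney, liver, brain, spleen held for 33 members. As a share of all counts in genes, the 66 genes took 2.03% ± 0.34 (SD, n = 3) in WT muscle, 1.73% ± 0.093 (SD, n = 3) in kidney, 0.763% ± 0.018 (SD, n = 3) in liver, 0.731% ± 0.017 (SD, n = 3) in brain and 0.459% ± 0.075 (SD, n = 3) in spleen. WT muscle libraries (1.70% to 2.39%) overlapped WT kidney (1.62% to 1.79%), and WT liver overlapped WT brain. This share uses no TMM scaling, but it depends on how much of the total other genes take.

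**Figure D2:**
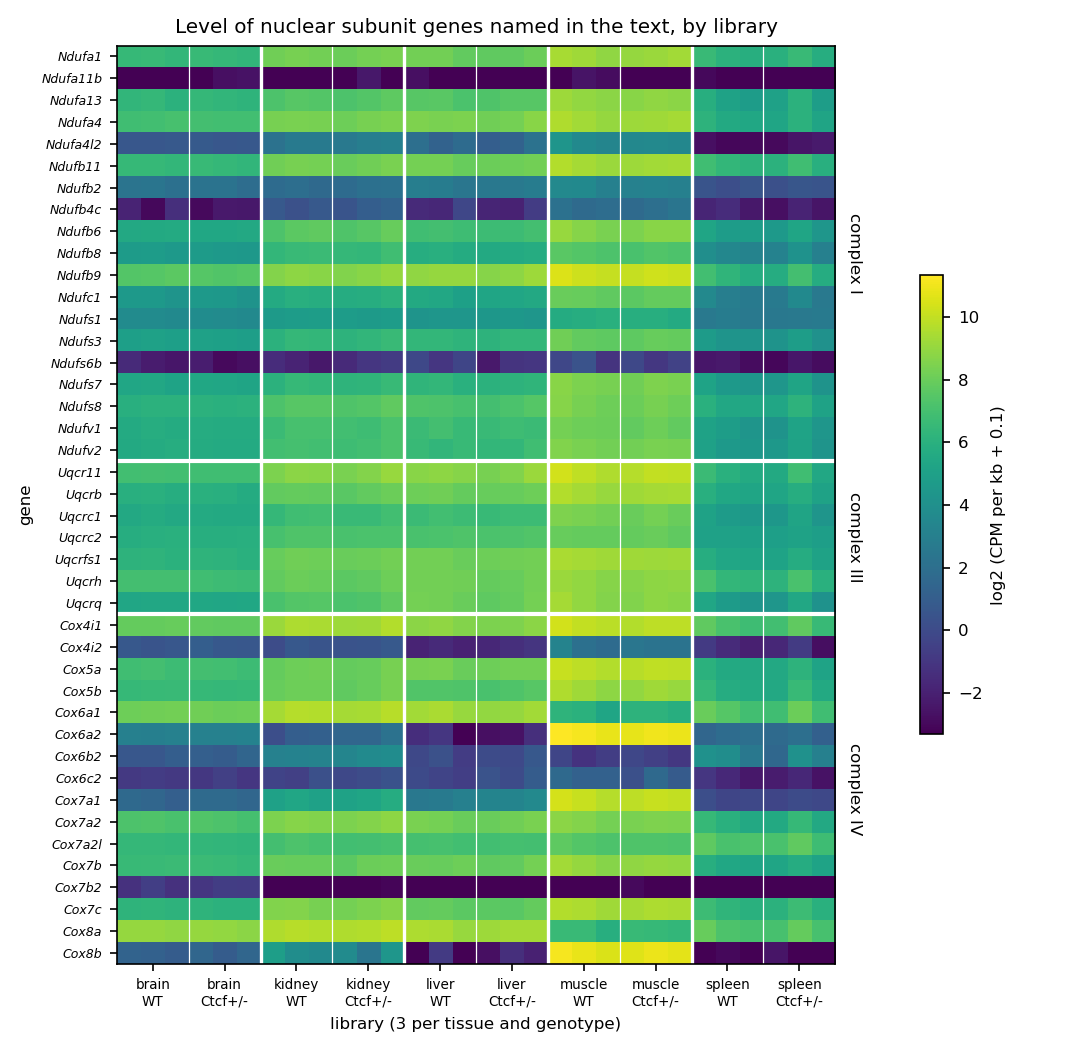
Level of 42 of the 66 genes, those named in the text (rows, by complex), in each of the 30 libraries (columns, 3 per tissue and genotype), as log2 of CPM per kilobase plus 0.1. On the mean over WT libraries, muscle is the highest tissue for 38 of these genes, Cox6a1 and Cox8a are darkest in muscle, and Cox7b2 is near the floor outside brain.

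The catalytic core of complex I shared this pattern. Ndufv1, which binds the flavin that accepts electrons from NADH, was at 315, 270 and 266 in the WT muscle libraries. Its level was 20.2 to 34.6 in WT spleen and 49.5 to 56.1 in WT brain, and it was 96.0 to 124 in WT liver and 101 to 137 in WT kidney. Ndufs1, which carries iron-sulfur clusters, was at 52.4 to 62.5 in WT muscle and 5.96 to 6.96 in WT spleen. Ndufs7, next to the ubiquinone site, was at 323 to 425 in WT muscle and 20.9 to 36.2 in WT spleen. In each case the muscle and spleen libraries were far apart and kidney, liver and brain lay between them. Among Ndufv1, Ndufv2, Ndufs1, Ndufs3, Ndufs7 and Ndufs8, the muscle difference ran from 1.92 (Ndufs8) to 2.99 (Ndufs7) and the spleen difference from -2.21 (Ndufv2) to -1.67 (Ndufs8), all called. All 39 tested complex I members were called higher in muscle and lower in spleen.

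Complex III showed the same direction in all 8 members. Uqcrfs1, the Rieske iron-sulfur protein, was at 702, 672 and 609 in the WT muscle libraries. It was lowest in WT spleen, at 38.6 to 55.5, then WT brain, at 66.04 to 74.0, with WT liver (250 to 295) and WT kidney (246 to 282) overlapping. The core proteins Uqcrc1 and Uqcrc2 differed in size of response: the muscle difference was 2.54 (SE 0.12) for Uqcrc1 and 1.67 (SE 0.08) for Uqcrc2. Uqcrc1 had the lowest mean level of complex III over the 15 WT libraries, at 125, and Uqcr11 the highest, at 408. The lowest rank depends on the exon length used, since Uqcrc2 was close, at 126. That length was 2.50 times the longest coding transcript for Uqcrc1 and 1.35 times for Uqcrc2. In liver the small subunit Uqcrq was called higher (log2 difference 1.45, SE 0.17, adjusted p = 3.1e-06), and in brain it was among the lowest (-1.90, SE 0.21, adjusted p = 1.2e-06).

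In complex IV, Cox5a and Cox5b, the subunits nearest the core on the matrix side, were at 817 to 1104 and 467 to 785 in WT muscle, against 46.5 to 66.4 and 50.3 to 87.3 in WT spleen. Cox4i1, the regulatory subunit with the highest mean of the complex, was at 894 to 1300 in WT muscle and 112 to 215 in WT spleen. The exceptions in muscle all lay in this complex. Cox6a1 (-2.60, SE 0.25), Cox8a (-2.34, SE 0.21) and Cox6b2 (-2.53, SE 0.35) were called lower there. Cox7a2l, at 0.62 on the log2 scale, missed the minimum, and Cox7b2 was not called. The largest positive differences in muscle were 11.95 for Cox8b, 10.40 for Cox6a2, 7.97 for Cox7a1, 3.997 for Ndufa4l2 and 3.51 for Ndufb4c. The sizes for Cox8b, Cox6a2 and Ndufa4l2 are fitted values, not bounds, since the other tissues include some with few counts: at most 6 per library for Cox8b in WT liver and spleen, 10 for Cox6a2 in WT liver and 5 for Ndufa4l2 in WT spleen.

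Spleen had its own exceptions: Cox6b2 was called higher (2.87, SE 0.24), and Cox7a2l, Cox6a1 and Cox7b2 were not called. Cox8b and Ndufa4l2 were called lower at no more than 1 and 5 counts per WT spleen library, too few to give a fold. The largest negative differences among the others were -5.11 for Cox7a1, -2.82 for Ndufc1 and -2.69 for Uqcrq. Ndufc1 encodes an accessory subunit of the complex I membrane arm. In brain 37 of 65 members were called, 36 lower, where 54.7% of all genes were called, 22.7% lower and 32.0% higher. Cox7b2 was the member called higher in brain. The lowest there were Cox7a1 (-3.04), Ndufb4c (-2.32), Uqcrq, Cox7c (-1.83) and Uqcrb (-1.79).

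Kidney and liver stood nearer the middle. In kidney 13 of 65 members were called, 12 higher, where 35.5% of all genes were called, 23.8% higher and 11.7% lower. The largest were Cox8b (3.49), Cox6b2 (2.33), Ndufa4l2 (2.23), Cox6a1 (1.83) and Ndufb4c (1.65), and Cox6a2 was lower (-2.68). In liver 12 were called, 7 higher and 5 lower, where 39.8% of all genes were called, 19.4% higher and 20.4% lower. The lower 5 were Cox6a2, Cox8b, Cox4i2, Cox6b2 and Cox7a1, all minor forms of complex IV subunits in liver. The higher included Ndufs6b (1.63), Uqcrq, Cox6a1 (1.44), Cox8a (1.19) and Ndufa4l2 (1.15). Ndufb4c, Ndufs6b, Ndufa11b and Cox6c2 are short gene copies with few counts, and reads they share with their parent genes could not be separated, so their values are uncertain.

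These counts depended on how tissues were set to each other. Scaling by total counts in place of TMM moved the median of all genes by -0.98 in muscle, -0.77 in liver, 0.46 in kidney, 0.59 in brain and 0.67 in spleen. With it, 50 members were called higher in muscle and 52 lower in spleen. In kidney 38 were called higher, in brain 9 lower and 3 higher, and in liver none higher and 7 lower. The muscle difference of Cox7a2l turned to -0.36. The median member difference kept its sign in muscle (1.42), spleen (-1.48), brain (-0.45) and kidney (1.07), and turned from 0.27 to -0.51 in liver.

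Summed over their members, each complex was highest in muscle and lowest in spleen, while the order of liver and kidney differed between complexes. Scaled by total counts, the WT muscle mean stayed highest, but its libraries overlapped WT kidney for complexes III and IV. The ranges were 2401 to 3512 in muscle and 2293 to 2516 in kidney for complex III. For complex IV they were 5492 to 8191 (5491.65 to 8190.5) and 5675 to 6161. Complex I summed to 13282 ± 2093 (SD, n = 3) CPM per kilobase in WT muscle, 5151 ± 411 (SD, n = 3) in kidney, 4811 ± 325 (SD, n = 3) in liver, 1965 ± 57 (SD, n = 3) in brain and 1262 ± 361 (SD, n = 3) in spleen. Complex III was higher on average in WT liver, at 2134 ± 145 (SD, n = 3), than in WT kidney, at 1922 ± 151 (SD, n = 3), with overlapping libraries, an order that turned when libraries were scaled by total counts (1332 in liver and 2436 in kidney). Complex IV was higher in WT kidney, at 4685 ± 333 (SD, n = 3), than in WT liver, at 3705 ± 343 (SD, n = 3), without overlap. The log2 ratio of WT muscle to WT spleen was 3.40 for complex I, 3.50 for complex III and 3.25 for complex IV. The proportions between complexes differed by tissue and varied little between libraries. Complex III over complex I was 0.441, 0.446 and 0.444 in WT liver, above every other WT library. It was 0.326 to 0.339 in WT brain and 0.330 to 0.335 in WT spleen. Complex IV over complex I was lowest in WT liver, at 0.747 to 0.789, and highest in WT brain, at 0.961 to 1.002. These ratios do not depend on scaling between tissues. They do depend on gene lengths: for 11 of the 62 genes with a coding transcript in GENCODE, the tables' exon length was over 2 times that of the longest coding transcript, which lowers the level of those genes in all tissues.

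**Figure D3:**
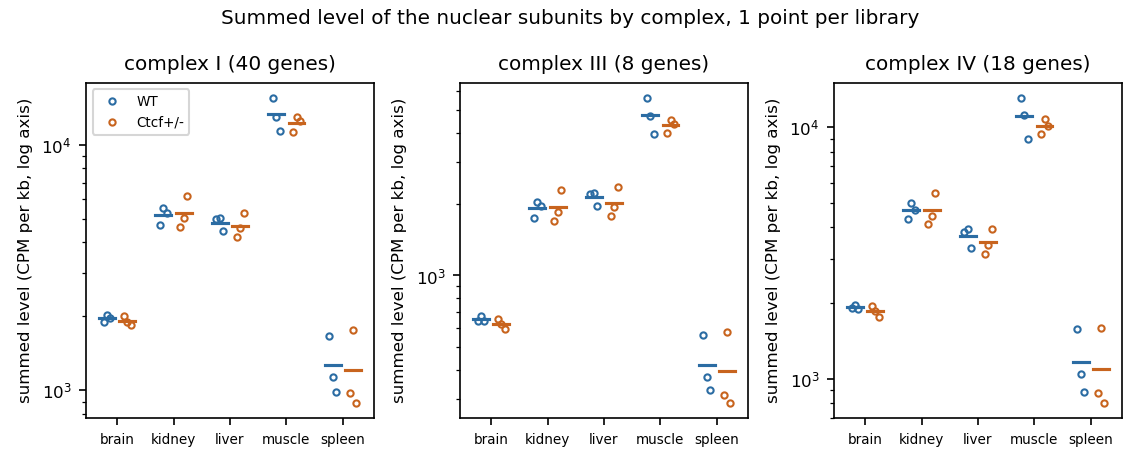
Summed level of the nuclear subunits of each complex (CPM per kilobase, log axis) by tissue, with 1 circle per library and a line at the mean of each genotype. Muscle was highest and spleen lowest in each complex, and the WT and Ctcf+/- libraries overlapped in every tissue.

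Levels per kilobase also differed among members. In complex I, Ndufb9, an accessory subunit, was highest at 492 on average over the 15 WT libraries, and Ndufa11b was lowest at 0.013. Complex IV ran from Cox4i1 at 515 to Cox7b2 at 0.079. The exons of 19 members overlapped another gene, and 3 shared over 20% of their exon bases: Ndufb6 with Smim27 (39.0%), Cox5a with Gm26631 (38.7%) and Ndufa13 with Tssk6 (30.0%).

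Other genes of oxidative phosphorylation were mostly higher in muscle and lower in spleen. Of all genes tested, 22.8% were called higher in muscle and 29.5% lower in spleen. In muscle all 4 complex II genes, 16 of 17 tested complex V genes and all 13 protein genes of the mitochondrial genome were called higher. The largest in each were Sdhb (2.49), the iron-sulfur subunit of succinate dehydrogenase, Atp5g1 (3.35), which encodes the c ring, and mt-Nd4l (3.89). Assembly factors differed by complex: 7 of 13 were called higher for complex I, 6 of 6 for complex III and 11 of 19 for complex IV. Ppargc1a, a coactivator of mitochondrial genes, was higher by 2.64 (SE 0.34), and 5 of 11 regulators were called higher. In spleen all 4 complex II genes, 15 of 17 complex V genes and 9 of 13 mitochondrial genes were called lower. So were 12 of 13 assembly factors of complex I and 5 of 6 of complex III. Of complex IV assembly factors 7 of 19 were called lower, and of regulators 2 of 11, where 29.5% of all genes were. Cox20 (1.99) and Cox17 (1.86), assembly factors of complex IV, and the regulator Nrf1 (1.76) were called higher. Brain had 3 of 4 complex II and 11 of 17 complex V genes called lower, where 22.7% of all genes were. Kidney and liver again stood nearer the middle. With TMM scaling the median of complex II genes was 0.78 in liver and 0.69 in kidney. In each, 1 of 4 was called higher, near the share of all genes (19.4% in liver and 23.8% in kidney). Of the 13 mitochondrial genes, 5 were called lower and none higher in liver, led by mt-Nd4l (-2.86) and mt-Co2 (-2.45), where 20.4% of all genes were called lower. In kidney 5 were called higher and none lower, where 23.8% of all genes were called higher.

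Comparing Ctcf+/- with WT within each tissue, no member was called in any tissue at an adjusted p under 0.05 (edgeR's quasi-likelihood test). These tests called Ctcf itself in brain alone, so a missing call does not show an unchanged level. In spleen 0 of 59 tested members were called, against 0.242% of all genes, and none had an unadjusted p under 0.05, against 3.52%. In muscle 0 of 64 were called, against 0.0249%, and none had such a p, against 6.45%. In kidney 0 of 64 were called, against 0.0211%, and 2 had an unadjusted p under 0.05, against 6.44%. In liver 0 of 58 were called, against 0.0193%, and 1 had such a p, against 4.56%. In brain 0 of 63 were called, against 0.0157%, and 1 had such a p, against 2.96%. DESeq2 also called none. For a genotype effect shared by the tissues no member was called (0.194% of all genes), 1 had an unadjusted p under 0.05 (5.91% of all genes), and 47 of 65 were below 0 (45.0% of all genes). For an interaction of genotype and tissue none was called (0.758%), and 0 had an unadjusted p under 0.05 (6.66%). On the log2 scale the median member difference was lowest in muscle, at -0.12, then spleen (-0.07), liver and brain (both -0.04), and kidney (0.03).

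**Figure D4:**
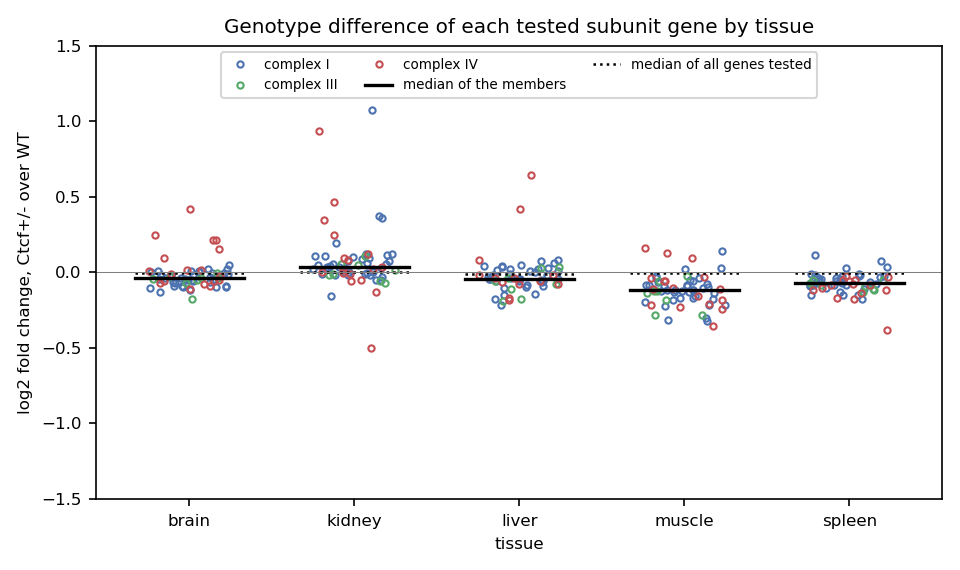
Log2 fold change of Ctcf+/- over WT for each tested member (circles, coloured by complex) in each tissue, with the median of the members (solid line) and of all genes tested (dotted line). The solid lines lie between -0.12 in muscle and 0.03 in kidney, and no circle passed the adjusted threshold.

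The members with the smallest p-values were minor isoforms in kidney and liver. Cox6a2 in kidney was at 1.04, 2.01 and 2.18 in WT and 2.76, 2.75 and 4.46 in Ctcf+/- libraries, so the groups did not overlap. The log2 difference was 0.93 (SE 0.32, unadjusted p = 0.0174, adjusted p = 0.621, edgeR). The skeletal muscle markers named above were high in replicate 3 of both genotypes, where Cox6a2 was also highest, and their part in the difference was not tested. Cox6b2 in kidney was at 8.49 to 9.29 in WT and 9.95 to 13.9 in Ctcf+/- (0.47, SE 0.13, unadjusted p = 0.00746, adjusted p = 0.495, edgeR). Both adjusted p-values were 0.214 with replicate as a block, an alternative to the main fit, which had no such term. Ndufs6b had the next smallest p in kidney, with overlapping groups. These were the 2 kidney members whose groups did not overlap, where 6.15% of all genes tested had Ctcf+/- wholly above WT.

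Cox8b in kidney varied by library rather than by genotype. It was at 29.4, 14.2 and 12.4 in WT and 13.3, 5.18 and 21.0 in Ctcf+/- replicates 1, 2 and 3. Adipocyte markers in the same libraries summed to 254, 114 and 7.56 CPM in WT and 120, 61.4 and 204 CPM in Ctcf+/-. The library with most Cox8b, WT replicate 1, also had most adipocyte marker RNA. The least Cox8b was in Ctcf+/- replicate 2, and the least adipocyte marker RNA in WT replicate 3. Skeletal muscle markers were high in replicate 3 of both genotypes. The part of these cells in the Cox8b level was not tested.

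In liver Cox7a1 was at 5.68, 6.19 and 8.17 in WT and 9.81, 9.55 and 11.99 in Ctcf+/- libraries. This was the liver member without overlap, where 4.68% of all genes had Ctcf+/- wholly above WT (log2 difference 0.64, SE 0.21, unadjusted p = 0.0163, adjusted p = 0.914, edgeR). Ndufb8 and Ndufa1 came next, at -0.18 and -0.21, with overlap. Cox7a1 also had the smallest p in the shared test, at 0.21 (SE 0.10, unadjusted p = 0.0371, adjusted p = 0.788), followed by Cox7a2l (-0.09) and Uqcrh (-0.12). The smallest p-values for the interaction belonged to Ndufs6b, Cox7a1 and Cox6a2 (adjusted p = 0.786, 0.802 and 0.857).

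In brain 46 of 63 members were below 0, against 51.8% of all genes, and 6 had Ctcf+/- libraries wholly below WT, where 4.1% of all genes did. Uqcrh, the hinge protein of complex III, was at 122, 123 and 125 in WT and 117, 108 and 102 in Ctcf+/- (log2 difference -0.18, SE 0.06, unadjusted p = 0.0220, not called after adjustment). Cox6b2 (0.42, SE 0.18) and Cox4i1 (-0.11, SE 0.05) followed. Without Ctcf+/- replicate 3, 29 of 63 members were below 0, and the median was 0.0042. The brain median of -0.04 became 0.03 when all 30 libraries were fitted together.

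In muscle 58 of 64 tested members were below 0, against 51.6% of all genes. The 66 genes summed to 34257, 28880 and 24309 CPM per kilobase in WT and 24679, 28321 and 27038 in Ctcf+/- replicates 1, 2 and 3, so the groups overlapped. WT replicate 1 was the highest of the 6 libraries for 58 members. Without it, 28 of 64 were below 0 and the median was 0.03. The smallest p-values were those of Uqcrc1 (-0.28, SE 0.13), Ndufb2 (-0.32, SE 0.15) and Ndufv1 (-0.22, SE 0.12), with adjusted p of 0.801 to 0.863. Ctcf+/- lay wholly below WT for 1 member, where 6.28% of all genes did. All 17 complex V genes tested and 12 of 13 mitochondrial genes were below 0 as well, none called. Ppargc1a had a difference of -1.29 (SE 0.57, adjusted p = 0.777, edgeR).

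Markers of fat cells were higher in every Ctcf+/- than in every WT muscle library, while slow-fibre markers overlapped. Slow-fibre markers summed to 2775, 3584 and 1342 CPM in WT and 952, 1869 and 563 CPM in Ctcf+/-. Adipocyte markers summed to 98.0, 68.0 and 33.5 CPM in WT and 466, 176 and 341 CPM in Ctcf+/-, and brown adipocyte markers to 0.688 to 2.98 CPM and 9.48 to 18.2 CPM, without overlap in either list. No gene of these lists was at 0 in either genotype. Their part in the muscle values was not tested. The Cox7a1 share was 66.4% in WT and 67.0% in Ctcf+/- muscle, with overlap. The Cox6a2 share was 97.2% to 98.0% in WT and 96.3% to 97.0% in Ctcf+/- muscle, without overlap, a difference that was not tested.

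**Figure D5:**
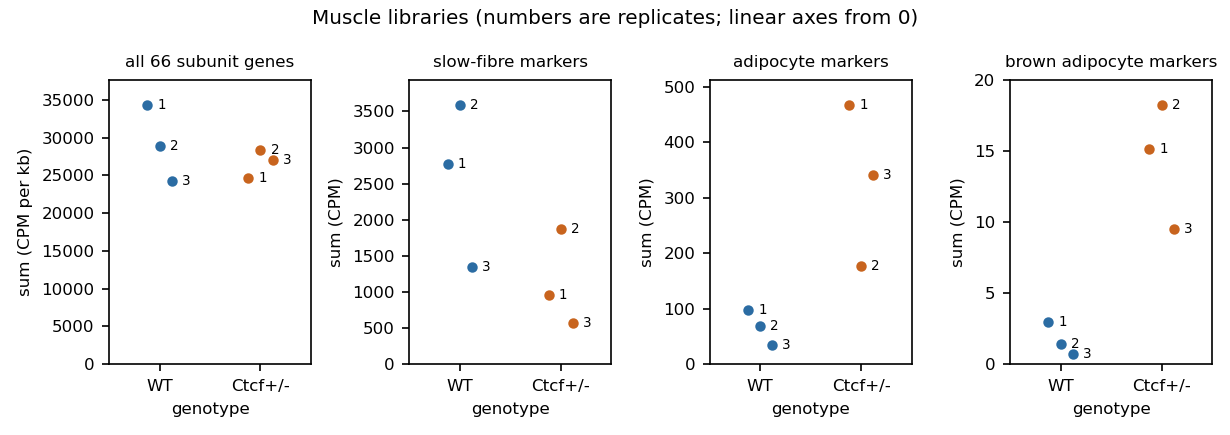
Summed level of the 66 subunit genes (CPM per kilobase) and of slow-fibre, adipocyte and brown adipocyte markers (CPM) in each muscle library; numbers are replicates and axes start at 0. Subunit sums overlapped between genotypes, with WT replicate 1 highest at 34257, while both adipocyte lists were higher in every Ctcf+/- library.

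Spleen had 55 of 59 members below 0, against 51.1% of all genes, and no member without overlap, where 6.64% of all genes did not overlap. WT replicate 1 and Ctcf+/- replicate 2 were the 2 highest of the 6 spleen libraries for 56 members. Complex I summed to 1671, 1128 and 987 in WT and 974, 1754 and 886 in Ctcf+/- replicates 1, 2 and 3. The erythroid markers summed to 63638, 40205 and 10049 CPM in WT and 14665, 54194 and 24099 CPM in Ctcf+/-, so the same 2 libraries were highest. Exocrine pancreas markers were also highest in these libraries, at 86.8 and 654 CPM, against at most 56.9 CPM in the other 4. The part of either cell type's RNA in the subunit levels was not tested. Without WT replicate 1, 4 of 59 members were below 0 (median 0.18). Leaving out Ctcf+/- replicate 1 or 3 left 14 and 6 below 0. Without Ctcf+/- replicate 2 all 59 were (median -0.43). The smallest p-values were those of Ndufb6 (-0.18, SE 0.28), Cox6b2 (-0.38, SE 0.66) and Ndufb11 (-0.15, SE 0.29).

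Kidney differed in sign, with 22 of 64 members below 0 against 49.9% of all genes. Ctcf+/- replicate 3 was the highest of the 6 kidney libraries for 60 of 66 members, and without it 53 were below 0 and the median turned from 0.03 to -0.10. Without WT replicate 1, 39 were below 0, and without any other single library 5 to 16 were: 7 without WT replicate 2, 5 without Ctcf+/- replicate 1, 11 without Ctcf+/- replicate 2 and 16 without WT replicate 3. In liver 39 of 58 were below 0, against 52.4% of all genes, and the median ran from -0.12 to 0.06 as each library was left out, with 17 of 59 below 0 without Ctcf+/- replicate 1. None of the lists of complex II, cytochrome c, complex V, assembly factors, regulators or mitochondrial genes had a called gene in any genotype comparison.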

How the data were processed

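Total RNA of 30 samples was sequenced. The authors deposited 1 table per tissue of raw counts per gene, made with featureCounts 1.5.0-p3 on exons of the GRCm38 Ensembl release 86 annotation, paired-end fragments and no strand option, per the file headers; STAR, FastQC and DESeq2 are named in the submitters' processing notes. Groups came from the labels. The 66 members and the gene lists were chosen with earlier results of these data known.

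Counts were tested on all genes with edgeR 4.0.16 (quasi-likelihood F-test, TMM, filterByExpr, Benjamini-Hochberg adjustment; R 4.3.3): genotype within each tissue on its 6 libraries, each WT tissue against the mean of the others on the 15 WT libraries, and the shared effect and interaction on 30 libraries. Genes with an adjusted p under 0.05 were called, with a log2 difference of at least 1 for tissues. Levels are CPM per kilobase of the tables' exon length, TMM-scaled within each tissue and set between tissues by the mean TMM scaling over 30 libraries. DESeq2 1.42.0 was an alternative. The scripts were tested on simulated data. Replicate pairs differed by more than counting noise (chi-square per degree of freedom 15.4 to 640). Same-numbered WT and Ctcf+/- libraries deviated together in brain (r = 0.209 to 0.540) and kidney (r = 0.193 to 0.212). All r were also positive for liver (lowest 0.05, highest 0.279) and muscle (lowest 0.084, highest 0.257). Spleen had r of -0.472, -0.22 and 0.473. Replicate number was not a term of the main genotype fits. It was fitted as a block in an alternative for every tissue. Genotype p-values within a tissue rest on the spread between 3 libraries per group. The tissue, shared and interaction tests use a spread pooled over the tissues in the fit. Tissues of 1 mouse were treated as independent, so p-values of the shared effect may be too small. Named genes were the paralogue families, the catalytic core genes, the 3 smallest p-values of each genotype test, the 5 largest calls in each direction per tissue, the highest and lowest member of each complex, and the 2 largest of each other list; 1 gene that the rule takes is not reported here.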

Additional observations from a re-analysis of the deposited data

How the results depend on the processing

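No member was called for genotype within a tissue with DESeq2, its size factors, total counts, 2 other count filters, a fit of all 30 libraries, each library left out in turn, or the replicate block (0 members in each tissue). For the shared effect and the interaction, none was called with DESeq2, total counts, a filter of 1 count, the replicate block, or each tissue left out in turn. The tissue counts depended on the settings more. Scaled by total counts, liver had 7 members called, kidney 39 and brain 12. With 10 counts required in every library, where fewer genes are tested, liver had 7 and brain 23. With no fold change minimum, liver had 34, kidney 49 and brain 58. Muscle and spleen counts stayed within 1.5 times under all of these. Total counts also turned the muscle difference of Cox7a2l to -0.36 and lowered the log2 ratio of WT muscle to WT spleen to 2.23, 2.34 and 2.09 for complexes I, III and IV. The brain median genotype difference was 0.030 in the 30-library fit. As single libraries were left out, the spleen differences ran from -0.50 to 0.0086 for Ndufb6, -1.15 to 0.050 for Cox6b2 and -0.47 to 0.073 for Ndufb11.

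Shares of paralogues by raw counts were 54.6% for Cox7a1 and 93.6% for Cox8b in WT muscle, 79.4% for Cox7a2l and 12.9% for Cox6b2 in WT spleen, and 1.46% for Ndufa4l2 in WT muscle. With coding transcript lengths they were 96.9% for Cox6a2, 13.5% for Cox6b2 and 0.956% for Ndufa4l2. In Ctcf+/- muscle Cox6a2 was 96.6% and Cox8b 95.0%. Apart from construction (lengths, genes tested), the cause was not tested. Depth limits Cox7b2, Cox8b outside muscle, kidney and brain, Cox6a2 in liver, Ndufa4l2 in spleen, and the short gene copies, which had few counts.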
